A study of Danio rerio with 4 samples.

Results

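The fibroblast growth factor (FGF) genes described here are the protein-coding zebrafish genes whose symbols begin with one of the stems for FGF ligands, FGF receptors, FGF-binding proteins, Sprouty and Spred proteins, il17rd, etv4 and etv5, dual-specificity phosphatases (dusp), FLRT proteins and FRS adaptors. Of 20390 genes listed in the deposited table, 71 carry such a symbol, and 59 of these reached a normalised count of 10 in at least 2 of the 4 libraries. These 59 were tested among 16754 genes that met the same limit. No gene of the set met it through the libraries of 1 group alone. The match is by symbol, and it also took in 6 genes that are related by name only (spryd3, spryd4, spryd7a, spryd7b, fgfr1op and fgfr1op2), which left 53 genes without them.

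The libraries came from total RNA of whole zebrafish embryos at the 6-somite stage. All embryos carried the bns298 transgene. Its hsp70l promoter, which responds to heat, is kept from driving npas4l by a STOP cassette flanked by loxP sites. npas4l, a bHLH-PAS transcription factor needed for the first endothelial and blood cells, is followed in it by a linker, a P2A peptide and mCherry. Cre-injected embryos (2 libraries) received cre at the one-cell stage, which removes the STOP cassette, and uninjected embryos (2 libraries) kept it. Both groups were raised at 28 °C and heat-shocked for 1 h at 37 °C. Cre was injected and not inherited, so the share of cells that lost the cassette may vary within and between embryos. No injected embryos lacking the transgene were analysed here, so the effects of Cre, of injection and of npas4l cannot be told apart.

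The deposited totals were 8933474 and 9861419 in the Cre-injected libraries and 9093935 and 9479827 in the uninjected libraries. npas4l, listed under the clone name CABZ01080135.1, had normalised counts of 710 and 808 in Cre-injected embryos, against 370 and 279 in uninjected embryos. The log2 fold change was 1.23 ± 0.16 (SE, limma adjusted p = 0.00051). Reads from the transgene and from the embryo's own npas4l gene may both be in these counts, and they were not told apart. Whether the replicates of a group are separate clutches is not stated in the labels. The p-values therefore reflect the spread among these 4 libraries, and that spread may be technical. The Cre-injected replicates differed more from each other than the uninjected ones did. For the FGF genes the median absolute log2 difference between replicates was 0.219 in the Cre-injected group and 0.181 in the uninjected group.

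FGF ligands are secreted proteins that bind receptor tyrosine kinases together with heparan sulfate on the cell surface. Bound receptors phosphorylate FRS adaptors and activate the Ras-MAPK cascade, which switches on ETS factors of the etv4 and etv5 group and a set of inhibitors, among them Sprouty and Spred proteins, il17rd (Sef) and dusp6, that hold the pathway back. In the early zebrafish embryo FGF signals act in the tailbud, at the midbrain-hindbrain boundary, in the hindbrain, in the forebrain and in the heart field, and the inhibitor genes are commonly read as markers of where the pathway is active.

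Of the 59 FGF genes, 4 were higher in Cre-injected embryos (fgf2, fgfr4, dusp4 and fgf13a) and 1 was lower (fgfrl1a) at an adjusted p below 0.05 by limma, and 54 did not pass. The called share was 8.47% of the FGF genes, against 12.5% of all genes tested. Among all genes 6.35% were called higher and 6.19% lower, so the FGF genes as a set were not called more often than genes in general. In 17 of the 59 both Cre-injected values lay above both uninjected values (28.8%, against 28.0% of all genes), and in 13 they lay below (22.0%, against 28.8% of all genes). The median log2 fold change was -0.09 for the FGF genes and 0 for all genes. Among the 34 FGF genes with a mean normalised count of at least 100, 3 were called (8.82%, against 16.6% of all genes at that level).

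**Figure D1:**
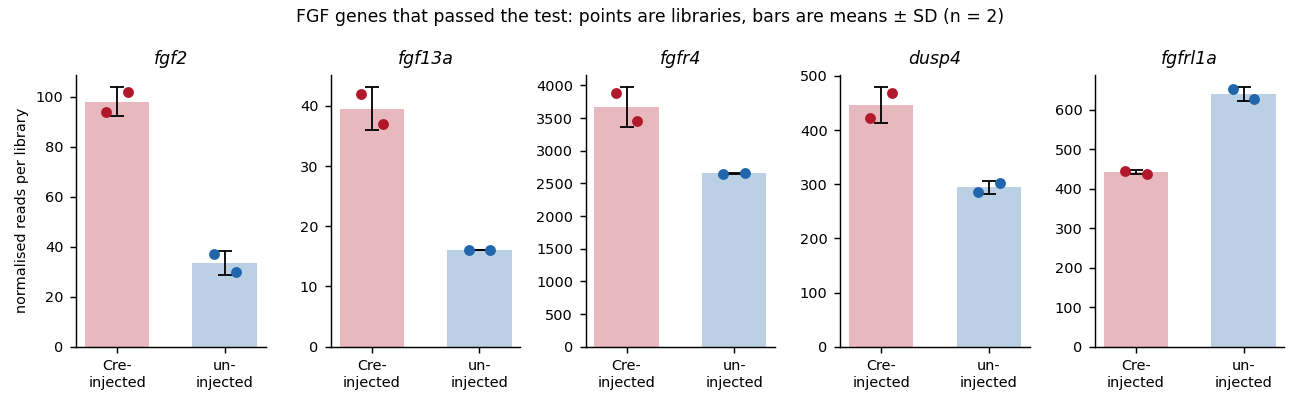
Normalised counts of the 5 FGF genes that passed the threshold, 1 point per library, with Cre-injected libraries to the left of uninjected libraries and bars for the mean ± SD (n = 2 each); each panel has its own axis. The groups do not overlap in any of the 5 panels, and fgfrl1a is the panel in which the Cre-injected points are the lower ones.

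Among the 10 secreted ligands, fgf2 rose (10.0% called, against 12.5% of all genes), and the other 9 did not pass. fgf2 (chromosome 14, 567216 to 572742 in the deposited table), a ligand without a classical signal peptide and known as basic FGF, had normalised counts of 94 and 102 in Cre-injected embryos, against 37 and 30 in uninjected embryos. Both Cre-injected libraries were well above both uninjected ones, and replicates of each group lay close together. The means were 98.0 ± 5.66 in Cre-injected embryos and 33.5 ± 4.95 in uninjected embryos (SD, n = 2 each), a 2.93-fold difference. The log2 fold change was 1.53 ± 0.27 (SE, adjusted p = 0.00354), with a 95% interval from 0.94 to 2.11. fgf2 was called under all 13 alternative settings, with log2 fold changes between 1.38 and 1.67 and adjusted p-values up to 0.0442, the highest without uninjected replicate 2. In whole-embryo RNA a gain in the number of cells that express a gene and a gain of RNA per cell cannot be told apart, and this holds for each difference given here.

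The ligand genes best known from early patterning were close to the same level in both groups. fgf8a, the ligand of the midbrain-hindbrain boundary and the heart field, had normalised counts of 222 and 200 in Cre-injected embryos, against 232 and 219 in uninjected embryos. fgf3, which acts with fgf8a in the hindbrain and in ear induction, had 117 and 126 in Cre-injected embryos, against 139 and 145 in uninjected embryos. fgf17, a ligand close to fgf8a in sequence, had 153 and 150 in Cre-injected embryos, against 138 and 149 in uninjected embryos. None of these differences passed (adjusted p between 0.475 and 0.814). The 95% intervals of the log2 fold change ran from -0.45 to 0.26 for fgf8a, from -0.64 to 0.19 for fgf3 and from -0.32 to 0.47 for fgf17, so a 2-fold change lay outside each of them. Both Cre-injected values of fgf3 were below both uninjected values, both of fgf17 were above, and those of fgf8a overlapped.

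The 6 remaining ligands were counted more thinly. Of all 10 ligands, 8 had a negative log2 fold change (median of the 10: -0.28), as did 8385 of the 16754 genes tested. fgf4, which lies 7.95 kb from fgf3 on chromosome 7, had the lowest log2 fold change of all FGF genes, -1.03 ± 0.45 (SE). Its normalised counts were 20 and 10 in Cre-injected embryos, against 28 and 32 in uninjected embryos. The 4 values did not overlap between groups, but the difference did not pass (adjusted p = 0.155). It passed when Cre-injected replicate 1 was left out (0.0321), and over all 13 alternatives its adjusted p reached up to 0.471. fgf24, a ligand of fin bud induction, had 37 and 21 in Cre-injected embryos, against 47 and 33 in uninjected embryos, which overlap. fgf18b, fgf10a, fgf10b and fgf1b also overlapped or touched between groups, and their adjusted p-values lay between 0.434 and 0.906.

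fgf2 sits in a stretch of chromosome 14 with other genes measured here, and the feedback inhibitor spry1 is 1 of them, 68.2 kb away. Of the 6 tested genes within 100 kb of fgf2, none passed limma's threshold. In 5 of them (nudt6, SPATA5, spry1, zgc:172215 and ANKRD50) both Cre-injected values were above both uninjected values, a pattern held by 28.0% of all genes. The nearest was nudt6, which lies 1.83 kb from fgf2 and is known from mammals as a fgf2 antisense gene. nudt6 had 91 and 121 in Cre-injected embryos, against 64 and 58 in uninjected embryos (log2 fold change 0.77, adjusted p = 0.0571). The 6th, zgc:158257, overlapped between groups, with 75 and 100 in Cre-injected embryos and 101 and 80 in uninjected embryos.

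The FGF homologous factors are relatives of the ligands that stay inside the cell, where they bind voltage-gated sodium channels. Of the 3 that were tested, fgf13a rose (33.3% called, against 12.5% of all genes). fgf13a (chromosome 14, 32183978 to 32405387) had normalised counts of 42 and 37 in Cre-injected embryos, against 16 and 16 in uninjected embryos. The log2 fold change was 1.25 ± 0.37 (SE, adjusted p = 0.0459), with a 95% interval from 0.44 to 2.06. The groups were well apart, but the counts were low and the call sat near the threshold. It was lost in 8 of 13 alternative settings, among them each of the 4 fits without a library (adjusted p from 0.0584 to 0.196). Its paralog fgf13b had 25 and 27 in Cre-injected embryos, against 23 and 33 in uninjected embryos, and fgf12b had 49 and 94 in Cre-injected embryos, against 57 and 49 in uninjected embryos. The values of both overlapped. fgfbp1b, a secreted carrier that binds FGF ligands, had 28 and 61 in Cre-injected embryos, against 72 and 40 in uninjected embryos, which also overlap.

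**Figure D2:**
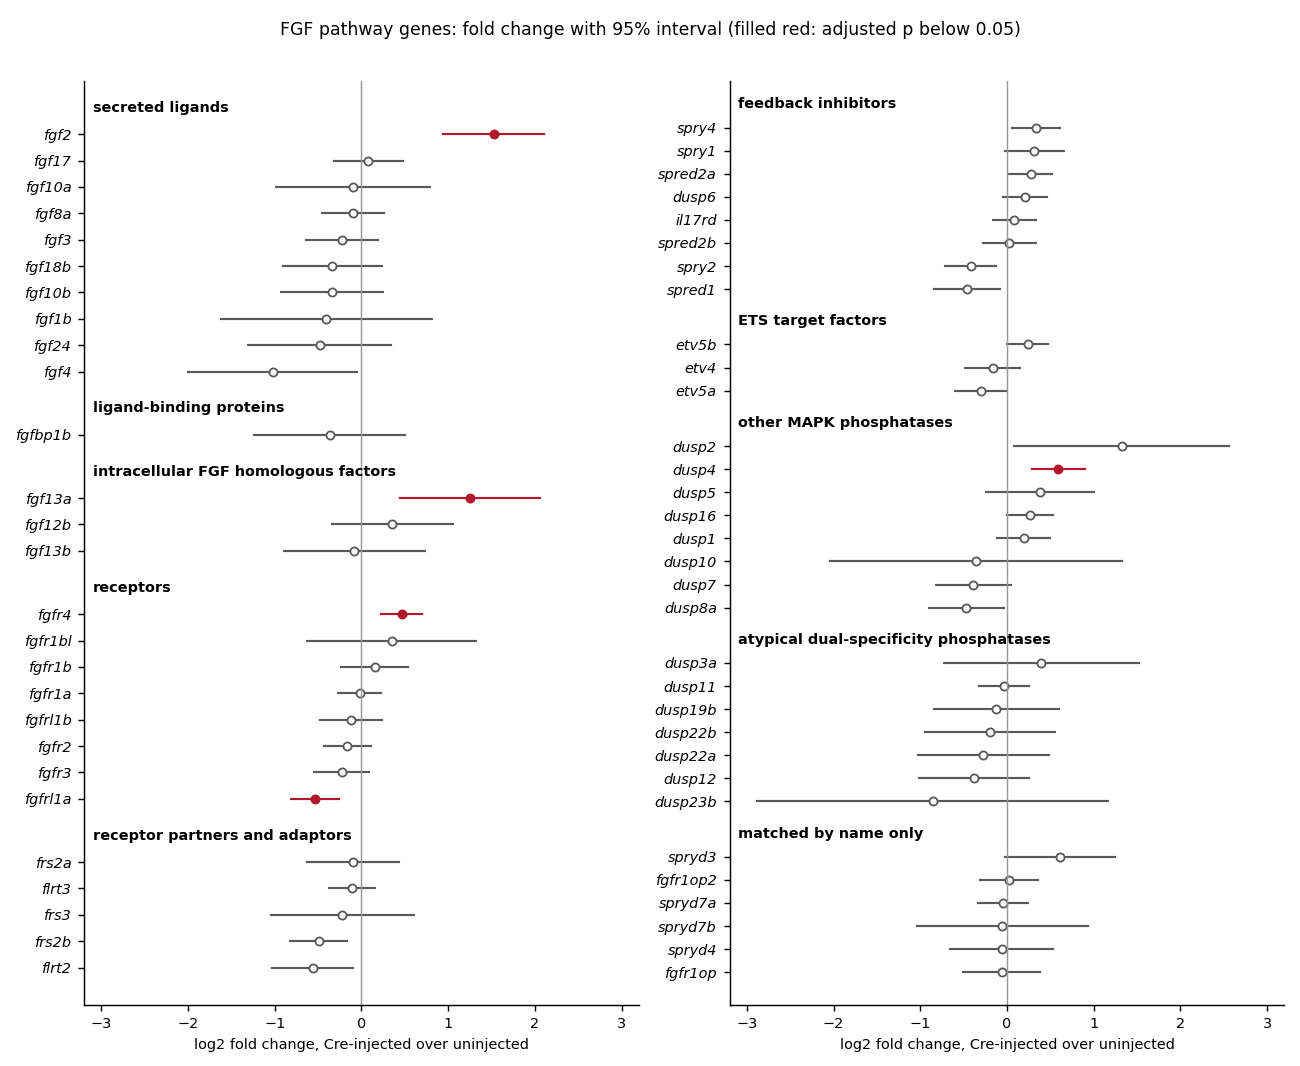
Log2 fold change (Cre-injected over uninjected) of the tested FGF genes with 95% intervals from limma, grouped by role, with called genes marked. fgf2, fgf13a, dusp4 and fgfr4 are the called genes to the right of 0 and fgfrl1a is the called gene to the left.

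Among the 8 receptor genes, fgfr4 rose and fgfrl1a fell (25.0% called, against 12.5% of all genes), while the other 6 did not pass. fgfr4 (chromosome 21, 37183124 to 37194839), a kinase receptor, had normalised counts of 3880 and 3454 in Cre-injected embryos, against 2650 and 2663 in uninjected embryos. The 2 Cre-injected libraries were both higher, and they differed from each other more than the uninjected libraries did. The log2 fold change was 0.46 ± 0.11 (SE, adjusted p = 0.016), with a 95% interval from 0.23 to 0.70. fgfrl1a (chromosome 14, 17442913 to 17563773), an FGF receptor-like protein that binds ligand but has no tyrosine kinase domain, had 445 and 438 in Cre-injected embryos, against 651 and 627 in uninjected embryos. The log2 fold change of fgfrl1a was -0.53 ± 0.13 (SE, adjusted p = 0.0172), and both Cre-injected libraries were below both uninjected ones. The adjusted p was 0.272 for fgfr4 and 0.239 for fgfrl1a without uninjected replicate 1, and 0.25 for fgfr4 and 0.181 for fgfrl1a without uninjected replicate 2. Over the alternatives with all 4 libraries, the adjusted p ran from 0.00866 to 0.0406 for fgfr4 and from 0.0126 to 0.0291 for fgfrl1a.

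Genes near these receptors did not all share the direction of the receptor gene. Of the 4 tested genes within 100 kb of fgfrl1a, wfs1b, which encodes a wolframin protein and lies 91.8 kb away, rose, with 170 and 205 in Cre-injected embryos, against 91 and 86 in uninjected embryos (log2 fold change 1.07, adjusted p = 0.0048). The adjusted p of wfs1b ran from 0.00175 to 0.012 over the alternatives with all 4 libraries, and it did not pass without uninjected replicate 2. The other 3 did not pass: both Cre-injected values were higher for rnf4 and lower for selenot2, while those of rab33a touched the uninjected ones. The 1 tested gene near fgfr4, znf346, had 3859 and 4046 in Cre-injected embryos, against 4495 and 4362 in uninjected embryos, lower in both Cre-injected libraries without passing (adjusted p = 0.326). The 1 near fgf13a, mcf2a, overlapped between groups. In all, 1 of the 13 neighbours of the 5 called FGF genes passed, against 12.5% of all genes.

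fgfr1a, fgfr1b, fgfr2 and fgfr3, also kinase receptor genes, did not pass. fgfr1a, a receptor with known roles in the posterior body, had 1153 and 1033 in Cre-injected embryos, against 1096 and 1120 in uninjected embryos (log2 fold change -0.02, 95% interval from -0.27 to 0.23, adjusted p = 0.925). fgfr2 had 1218 and 1033 in Cre-injected embryos, against 1187 and 1329 in uninjected embryos, which overlap. fgfr3 had 625 and 483 in Cre-injected embryos, against 645 and 643 in uninjected embryos, with both Cre-injected values lower. fgfr1b had 402 and 282 in Cre-injected embryos, against 294 and 311 in uninjected embryos, which overlap. Adjusted p-values of fgfr2, fgfr3 and fgfr1b lay between 0.328 and 0.607. fgfr2 (0.0368) and fgfr3 (0.0109) passed without Cre-injected replicate 1, and reached up to 0.871 and 0.852 under other alternatives. fgfrl1b, the paralog of fgfrl1a, had 273 and 222 in Cre-injected embryos, against 265 and 271 in uninjected embryos (adjusted p = 0.666), and fgfr1bl, with 22 and 17 in Cre-injected embryos and 16 and 14 in uninjected embryos, was the thinnest counted of the 8.

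fgfr4 took a larger share of the reads assigned to the 5 genes fgfr1a, fgfr1b, fgfr2, fgfr3 and fgfr4 in Cre-injected embryos than in uninjected embryos. The share of fgfr4 was 53.3% and 55.0% in Cre-injected embryos, against 45.1% and 43.9% in uninjected embryos. The means were 54.1% ± 1.16 in Cre-injected embryos and 44.5% ± 0.869 in uninjected embryos (SD, n = 2 each). The reads were not corrected for transcript length, so these shares compare libraries and not receptors. The 4 genes of these other than fgfr4 summed to 3398 and 2831 in Cre-injected embryos, against 3222 and 3403 in uninjected embryos, which overlap. The larger share thus rests on the same fgfr4 counts given above and is not a separate result. With 2 libraries a group no test was made, since the smallest p that an exact two-sided permutation test allows is 0.333.

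**Figure D3:**
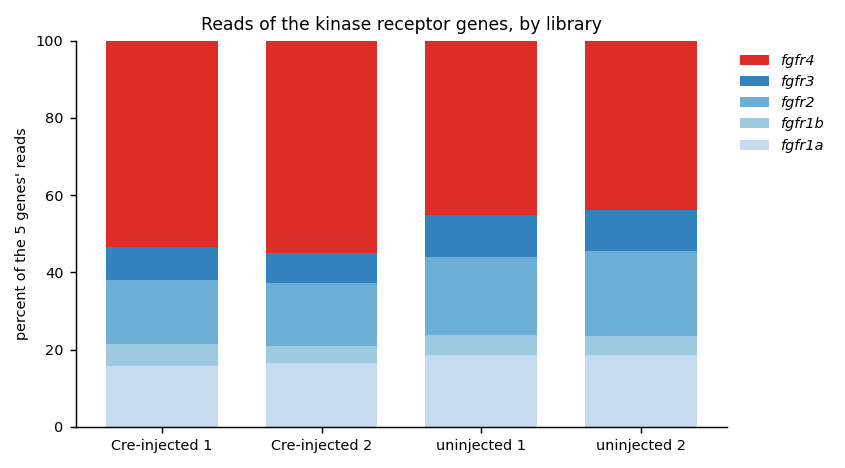
Share in percent of the reads assigned to fgfr1a, fgfr1b, fgfr2, fgfr3 and fgfr4 that each gene took in each library, with Cre-injected libraries left of uninjected libraries. fgfr4 takes 53.3% and 55.0% in the Cre-injected libraries and 45.1% and 43.9% in the uninjected ones; shares are not corrected for transcript length.

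None of the 5 receptor partners and adaptors passed, against 12.5% of all genes. All 5 had a negative log2 fold change (median -0.22), as did 8385 of the 16754 genes tested. Both Cre-injected values were lower in 3 of the 5 (60.0%, against 28.8% of all genes). frs2b, a paralog of the FRS2 adaptor that links receptors to Ras, had 283 and 330 in Cre-injected embryos, against 465 and 398 in uninjected embryos. Both Cre-injected values were lower, and the log2 fold change was -0.49 ± 0.15 (SE, adjusted p = 0.0535). frs2b passed without a filter on low values (adjusted p = 0.0447), with a mean of at least 20 (0.0477), and when libraries were scaled to equal totals after mitochondrial and structural RNA genes were removed (0.0408). Without Cre-injected replicate 2 its adjusted p was 0.00233, and without uninjected replicate 1 it was 0.439, the extremes of its alternatives. flrt2, a transmembrane protein whose family binds FGF receptors, had 225 and 146 in Cre-injected embryos, against 300 and 240 in uninjected embryos (log2 fold change -0.56 ± 0.21, SE, adjusted p = 0.107). flrt2 passed with a replicate block (adjusted p = 0.044) and without Cre-injected replicate 1 (0.00044), and the highest value over its alternatives was 0.529. Its relative flrt3 had 2825 and 2277 in Cre-injected embryos, against 2645 and 2816 in uninjected embryos, which overlap. flrt3 passed without Cre-injected replicate 1 (0.0164) and reached up to 0.914 under other alternatives. The values of frs2a overlapped between groups (81 and 123 in Cre-injected embryos, 116 and 98 in uninjected embryos), while those of frs3 did not, with 22 and 23 in Cre-injected embryos and 24 and 29 in uninjected embryos.

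The feedback inhibitors and the ETS factors are the genes most often read as the output of the pathway, and none of these 11 passed the threshold in either direction, against 12.5% of all genes. In 6 of them both Cre-injected values were higher (54.5%, against 28.0% of all genes) and in 3 both were lower (27.3%, against 28.8% of all genes). The 11 had a median log2 fold change of 0.09. Log2 fold changes ran from -0.46 to 0.33, and 5 of the 11 had an unadjusted limma p below 0.05 (45.5%, against 28.4% of all genes tested). Each of the 11 had a mean normalised count of at least 100. Of all genes at that level, 16.6% were called and 33.5% had an unadjusted limma p below 0.05. Both Cre-injected values were higher in 33.2% of all genes at that level and lower in 28.5%.

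The inhibitor genes did not share 1 direction. spry4, a Sprouty protein that blocks Ras activation and a standard FGF target in zebrafish, had 1127 and 923 in Cre-injected embryos, against 806 and 811 in uninjected embryos (log2 fold change 0.33 ± 0.13, SE, adjusted p = 0.11). spry1 had 373 and 312 in Cre-injected embryos, against 286 and 262 in uninjected embryos (0.32 ± 0.15, SE, adjusted p = 0.203). spry2, of the same family, had 367 and 343 in Cre-injected embryos, against 458 and 491 in uninjected embryos (-0.42 ± 0.14, SE, adjusted p = 0.0655). So spry4 and spry1 had their higher values in Cre-injected libraries and spry2 had its lower ones there, each with no overlap between groups. Spred proteins, relatives of Sprouty that bind Ras and Raf, divided in the same manner. spred2a had 1209 and 1195 in Cre-injected embryos, against 953 and 1037 in uninjected embryos (0.27 ± 0.11, SE, adjusted p = 0.136). spred1 had 198 and 170 in Cre-injected embryos, against 276 and 232 in uninjected embryos (-0.46 ± 0.17, SE, adjusted p = 0.104). spred2b had 384 and 372 in Cre-injected embryos, against 389 and 354 in uninjected embryos (0.03, adjusted p = 0.924), and its values overlapped.

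dusp6, the phosphatase that removes phosphate from ERK in the cytoplasm, had 3009 and 3547 in Cre-injected embryos, against 2755 and 2906 in uninjected embryos. The Cre-injected values were both higher and lay further apart than the uninjected ones, and the log2 fold change of 0.21 ± 0.11 (SE) did not pass (adjusted p = 0.259). il17rd, the membrane inhibitor also called Sef, had 914 and 874 in Cre-injected embryos, against 840 and 844 in uninjected embryos, a small difference (log2 fold change 0.09, adjusted p = 0.667) without overlap. Which inhibitors passed depended on the Cre-injected library that was used. More of all genes also passed when either Cre-injected library was left out. Whether the inhibitors gained more calls than genes in general was not tested. When Cre-injected replicate 1 was left out, spry2 (adjusted p = 0.0112), spred1 (0.0196) and dusp6 (0.00175) passed. When Cre-injected replicate 2 was left out, spry4 (adjusted p = 0.000709), spred2a (0.0448) and spry1 (0.0423) passed. Over all 13 alternatives the highest adjusted p of these 6 genes lay between 0.406 (spry2) and 0.735 (dusp6). With 1 library left in a group, the spread comes from the 2 libraries of the other group, and the lone library is assumed to vary like them.

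**Figure D4:**
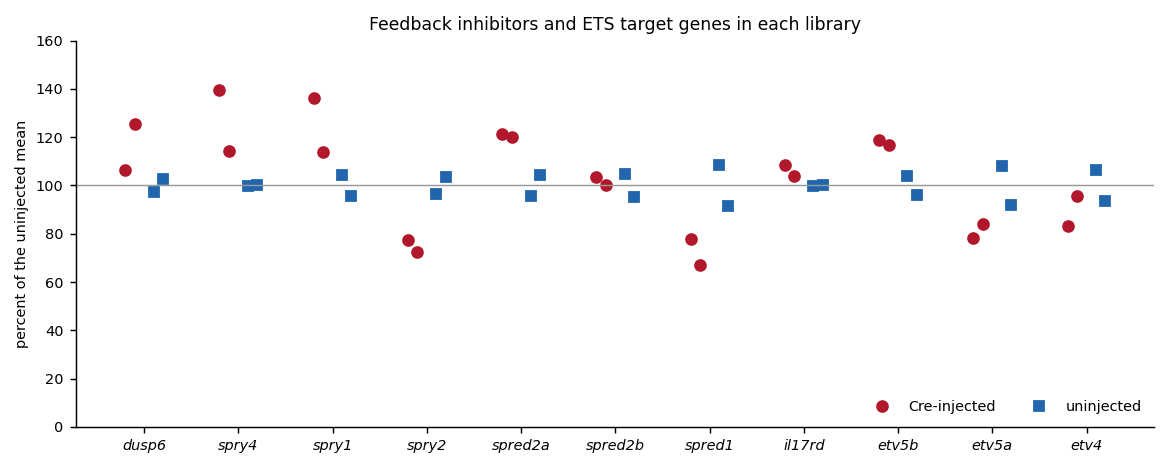
Normalised counts of the 11 feedback inhibitors and ETS factors in each library, in percent of the mean of the 2 uninjected libraries, with Cre-injected points left of uninjected points. Both Cre-injected points lie above both uninjected points for 6 genes, among them spry4, spred2a and etv5b, and below them for 3 genes, spry2, spred1 and etv5a.

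The 3 ETS factors, which bind DNA as effectors of MAPK signalling, also differed among themselves. etv5b had 1867 and 1835 in Cre-injected embryos, against 1629 and 1510 in uninjected embryos (log2 fold change 0.24 ± 0.11, SE, adjusted p = 0.172). etv5a had 411 and 440 in Cre-injected embryos, against 566 and 483 in uninjected embryos (-0.30 ± 0.14, SE, adjusted p = 0.183). The paralogs thus had values on opposite sides, each without overlap between groups. etv4, also called pea3, had 343 and 393 in Cre-injected embryos, against 438 and 385 in uninjected embryos (-0.16, adjusted p = 0.506), which overlap. etv5b passed without Cre-injected replicate 2 (0.0429) and reached up to 0.661 under other alternatives.

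Pairs of related FGF genes were also compared as the ratio of their normalised counts within a library. Of 10 pairs, the ratio was higher in both Cre-injected libraries in 5, lower in both in 3 (among them fgf10b to fgf10a) and overlapped in 2 (fgfr1b to fgfr1a and dusp22b to dusp22a). The ratio is not corrected for transcript length and is compared only between libraries. The ratio of etv5b to etv5a was 4.54 and 4.17 in Cre-injected embryos, against 2.88 and 3.13 in uninjected embryos. The ratio of spry4 to spry2 was 3.07 and 2.69 in Cre-injected embryos, against 1.76 and 1.65 in uninjected embryos. The ratio of fgf13a to fgf13b was 1.68 and 1.37 in Cre-injected embryos, against 0.696 and 0.485 in uninjected embryos. In these 3 pairs, and in spred2a to spred2b and spry1 to spry2, both Cre-injected ratios exceeded both uninjected ratios. The ratio of fgfrl1a to fgfrl1b was 1.63 and 1.97 in Cre-injected embryos, against 2.46 and 2.31 in uninjected embryos, and that of frs2b to frs2a was 3.49 and 2.68 in Cre-injected embryos, against 4.01 and 4.06 in uninjected embryos, so both were lower. These pairs were chosen after their values were seen, so the tally largely restates the values of the single genes. spry2 stands in 2 of the pairs. No share over other gene pairs was counted, and the ratios were not tested.

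Of the 8 other MAPK phosphatases, dusp4 rose (12.5% called, the same share as among all genes). dusp4 (chromosome 21, 20113470 to 20120543), a nuclear phosphatase that acts on ERK, had normalised counts of 422 and 469 in Cre-injected embryos, against 286 and 303 in uninjected embryos. Both Cre-injected libraries were higher and the groups were well apart. The log2 fold change was 0.59 ± 0.14 (SE, adjusted p = 0.0178), with a 95% interval from 0.29 to 0.90. Without uninjected replicate 1 the adjusted p of dusp4 was 0.211, and without uninjected replicate 2 it was 0.144. Over the alternatives with all 4 libraries, the adjusted p of dusp4 ran from 0.0123 to 0.0275. The 1 tested gene within 100 kb of it, tnksa, a tankyrase 4.62 kb away, had 838 and 752 in Cre-injected embryos, against 582 and 638 in uninjected embryos (log2 fold change 0.38, adjusted p = 0.0686).

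The other 7 MAPK phosphatases went both ways without passing. With dusp4 included, both Cre-injected values were higher in 5 of the 8 (62.5%, against 28.0% of all genes). Both were lower in 2 (25.0%, against 28.8% of all genes). dusp2, an inducible nuclear phosphatase, had 41 and 23 in Cre-injected embryos, against 6 and 22 in uninjected embryos, where 1 uninjected library nearly reached the lower Cre-injected one (log2 fold change 1.32 ± 0.57, SE, adjusted p = 0.151). dusp16, which acts on JNK and p38, had 981 and 855 in Cre-injected embryos, against 759 and 766 in uninjected embryos. Its uninjected libraries were nearly alike and both Cre-injected ones were higher. dusp5, a nuclear ERK phosphatase known as an early vascular gene, had 76 and 53 in Cre-injected embryos, against 48 and 49 in uninjected embryos. dusp1, an immediate early stress gene, had 452 and 535 in Cre-injected embryos, against 431 and 430 in uninjected embryos. In these 4 the Cre-injected values were both higher, with adjusted p-values between 0.151 and 0.412, and dusp2 (0.0476) and dusp16 (0.0133) passed without Cre-injected replicate 2. Under other alternatives they reached up to 0.715 and 0.579. dusp8a, which acts on JNK and p38, had 97 and 111 in Cre-injected embryos, against 139 and 149 in uninjected embryos (adjusted p = 0.144). dusp7, the closest relative of dusp6 in function, had 108 and 109 in Cre-injected embryos, against 156 and 130 in uninjected embryos (adjusted p = 0.223). Both Cre-injected values of dusp8a and dusp7 were lower, and those of dusp10, at 14 and 3 in Cre-injected embryos and 6 and 13 in uninjected embryos, overlapped.

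The 7 atypical dual-specificity phosphatases all overlapped between groups, as did 7248 of the 16754 genes tested. None of these small enzymes, which have little or no tie to FGF signalling, passed, against 12.5% of all genes. Their log2 fold changes ran from -0.86 for dusp23b, counted at 10 and 1 in Cre-injected embryos and 5 and 11 in uninjected embryos, to 0.40 for dusp3a, counted at 17 and 64 in Cre-injected embryos and 24 and 26 in uninjected embryos. dusp3a passed without Cre-injected replicate 1 (adjusted p = 0.0172), which leaves the library with 64, and reached up to 0.84 under other alternatives. Of the 6 genes related by name only, none passed, against 12.5% of all genes. They include fgfr1op, a centrosomal protein named for a fusion with an FGF receptor gene, at 105 and 104 in Cre-injected embryos and 109 and 109 in uninjected embryos. The lowest genes inside the limit on low values were dusp23b and dusp10. The nearest outside it were dusp23a (5 and 15 in Cre-injected embryos, 4 and 8 in uninjected embryos), dusp14 (6 and 5 in Cre-injected embryos, 8 and 10 in uninjected embryos) and fgf11b (6 and 9 in Cre-injected embryos, 10 and 5 in uninjected embryos). The 12 genes below the limit, which were not tested, also included fgf11a, fgf12a, fgf14, fgf20a, fgf23, fgf6a, fgf8b, dusp28 and spred3.

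Reads shared with overlapping genes could touch a few of these values. Of the 59 FGF genes, 8 overlap another listed gene. For 7 of them (fgf8a, fgfrl1a, flrt3, frs2a, spred1, spred2a and spryd7b) this is 1 gene on the other strand, while the long span listed for dusp19b holds 67 genes, 44 on its own strand and 23 on the other. Whether the counting used strand is not given in these sources. fgfrl1a overlaps the antisense gene CU302200.1, which was counted at 15 and 3 in Cre-injected embryos and 2 and 3 in uninjected embryos. The part of shared reads in the values of fgfrl1a was not tested.

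Few genes of the cascade below the receptors passed the threshold. Of the 39 tested genes in a list of the Ras-MAPK cascade, rps6ka3a rose and pebp1 fell (5.13%, against 12.5% of all genes), and the median log2 fold change was 0.03. In 9 of the 39 both Cre-injected values were higher (23.1%, against 28.0% of all genes). In 11 both were lower (28.2%, against 28.8% of all genes). rps6ka3a, an ERK-activated S6 kinase, had 876 and 703 in Cre-injected embryos, against 490 and 570 in uninjected embryos (log2 fold change 0.57, adjusted p = 0.0234). pebp1, an inhibitor of Raf, had 18 and 19 in Cre-injected embryos, against 44 and 57 in uninjected embryos (-1.39, adjusted p = 0.0226). No gene of the list passed without uninjected replicate 1, and none without uninjected replicate 2. Leaving out either Cre-injected library let more of the list pass, and more of all genes passed then too.

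Of the 29 tested genes for heparan sulfate synthesis and other FGF co-factors, 1 rose and 2 fell (10.3%, against 12.5% of all genes; median -0.07). hs2st1b, which adds 2-O-sulfate to heparan sulfate chains, had 10 and 27 in Cre-injected embryos, against 72 and 71 in uninjected embryos (log2 fold change -2.05, adjusted p = 0.00879). Its paralog hs2st1a, counted higher, had 406 and 414 in Cre-injected embryos, against 406 and 471 in uninjected embryos (-0.09, adjusted p = 0.705), which overlap. cnpy1, a positive FGF regulator of the midbrain-hindbrain boundary, had 256 and 216 in Cre-injected embryos, against 360 and 320 in uninjected embryos (-0.53, adjusted p = 0.0488). sulf1, an extracellular enzyme that removes 6-O-sulfate, had 1870 and 1923 in Cre-injected embryos, against 1456 and 1495 in uninjected embryos (0.36, adjusted p = 0.0451). The calls of sulf1 and cnpy1 lay close to the threshold. When either 1 of the uninjected libraries was left out, none of the list passed. More of the list passed when either Cre-injected library was left out, as did more of all genes.

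Genes listed for the regions in which FGF signals act at this stage also passed the threshold. The share called in each list stands beside 12.5% of all genes. The region lists were chosen with earlier results of these data known, so these shares are described only and were not tested. None of the forebrain markers named in the plan (six3b, rx3, foxg1a, otx2b and emx3) passed. The called genes aldh1a2, mespbb, cdx1a, her11, pou3f3b, vgll2b and mef2cb were also not among the markers planned for their regions. Of 13 somite and muscle genes, 4 fell (tnnc2, actc1b, aldh1a2 and mespbb) and none rose (30.8% called), and their summed level was 3627 and 3473 in Cre-injected embryos, against 5110 and 4967 in uninjected embryos. Of 8 forebrain genes, 3 fell (six3a, nkx2.1 and sp8a; 37.5%), with a sum of 1375 and 1131 in Cre-injected embryos, against 1622 and 1755 in uninjected embryos. Of 11 tailbud genes, cdx1a and msgn1 rose (18.2%), with a sum of 7496 and 7527 in Cre-injected embryos, against 6706 and 6349 in uninjected embryos. These 3 sums did not overlap between groups. Neither did the sums of the boundary list (higher) and of the hindbrain and ear placode list (lower), given below. How often the sum of any list separates in these data was not tested. cdx1a, a posterior homeobox gene, had 169 and 261 in Cre-injected embryos, against 73 and 90 in uninjected embryos (log2 fold change 1.36, adjusted p = 0.0032), while tbxta, the tailbud T-box factor, did not pass (0.30, adjusted p = 0.152).

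In the midbrain-hindbrain boundary list, 2 of 10 genes rose (pax8 and her11) and 2 fell (pax5 and en2b), 40.0% in all. The sum was 2681 and 2900 in Cre-injected embryos, against 2627 and 2617 in uninjected embryos. Whole-embryo RNA does not show where in the embryo these genes changed. Of 10 hindbrain and ear placode genes, 3 fell (pou3f3b, dlx4b and vgll2b; 30.0%), with a sum of 2914 and 2969 in Cre-injected embryos, against 3307 and 3148 in uninjected embryos. pou3f3b, a neural POU factor, had 203 and 199 in Cre-injected embryos, against 437 and 417 in uninjected embryos (log2 fold change -1.08, adjusted p = 0.000711). Of 9 heart field genes, gata4 rose and tbx5a and mef2cb fell (33.3%), and the sums overlapped at 3153 and 3167 in Cre-injected embryos and 3154 and 2897 in uninjected embryos. No tested gene of these lists was at 0 in any library. When either 1 of the uninjected libraries was left out, the calls dropped to 0 for the forebrain, heart field and boundary lists, 1 each for the hindbrain and tailbud lists and 2 for the somite list. Without Cre-injected replicate 1 more genes of the forebrain, heart field and somite lists passed, as did more of all genes. The part of these regions in the values of the FGF genes was not tested.

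**Figure D5:**
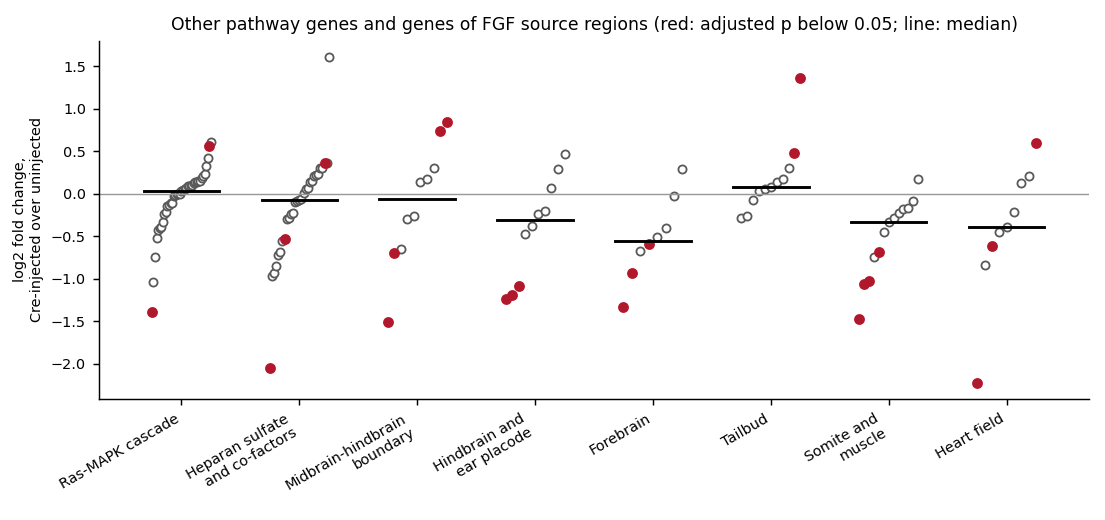
Log2 fold change (Cre-injected over uninjected) of each tested gene in the pathway and region lists, 1 point per gene, with genes that passed limma's threshold marked and the median of each list drawn as a line. The medians run from -0.55 for the forebrain list to 0.08 for the tailbud list.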

How the data were processed

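Total RNA of whole embryos (10 ng per library) was made into stranded low-input libraries and read as single ends of 75 bases, per the labels' protocols. The deposited table holds a score per gene and library. From the pattern of its values, whole numbers skipped or overfilled at regular steps, these scores are taken to be read counts per gene, scaled by the authors with 1 size factor per library and then rounded. They are called normalised counts here. The size factors were estimated at 0.983 and 0.985 for the Cre-injected and 1.02 and 1.03 for the uninjected libraries, which puts the reads assigned to genes at about 8.78 M and 9.71 M (Cre-injected) and 9.28 M and 9.74 M (uninjected). The aligner STAR 2.6.0c, the counter featureCounts 1.6.0 and DESeq2 1.14.1 are named per the submitters' processing notes, which also list Trimmomatic 0.36, FastQC 0.11.8 and the zebrafish assembly as GRCz11 or danRer11. Mitochondrial ribosomal RNA took 12.0% and 16.1% of the Cre-injected and 12.3% and 16.4% of the uninjected totals.

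limma 3.58.1 in R 4.3.3 was fitted to log2(value + 1) of all 16754 genes with at least 10 in at least 2 libraries, with robust shrinkage of the variances towards a trend with the mean. p-values were adjusted by Benjamini and Hochberg over all of them, with a threshold of 0.05. A fold change on the log2(value + 1) scale understates the change of low genes. The fit of this comparison was tested on simulated data (16348 genes, those given a change having means above 20). It called 76 of 100 genes given a 2-fold change, 99 of 100 given a 4-fold change and 6 of 16148 given none. The simulation gave genes of similar level the same spread, equal in both groups. In the real libraries the Cre-injected replicates differed more, so these rates need not hold for them.

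The FGF genes, the roles and the 8 lists were chosen with earlier results of these data known. Named genes are each FGF gene that passed, each feedback inhibitor and ETS factor, the ligands and receptors with a mean of at least 100, and up to 4 genes per list with the smallest p. Other FGF genes, neighbours, paralog pairs, hs2st1a and pax2a were named after their values were seen. Of the lists' genes, those not matched to the table by symbol or by gene identifier were left out. tbx16l of the tailbud list, which the table names tbx6l, was matched by identifier. Alternatives changed the pseudocount, the filter, the scaling, the shrinkage and the replicate block, and left out each library in turn. Sequences were not used here.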

Additional observations from a re-analysis of the deposited data

How the results depend on the processing

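The 59 FGF genes were refitted under 13 alternatives. fgf2 was called in all 13, and with all 4 libraries its adjusted p ran from 0.00121 to 0.00989. It was nearer the threshold when either 1 of the uninjected libraries was left out. dusp4, fgfr4 and fgfrl1a were called in 11 of 13 and lost only without 1 uninjected library or the other, and fgf13a was called in 5 of 13. Of all genes, 228 to 2064 were called higher and 210 to 1871 lower when 1 library was left out, and of the FGF genes 1 to 9 higher and 0 to 8 lower. The FGF genes called higher and lower were 4 and 1 as reported, and 3 and 2 when libraries were scaled to equal totals after removal of mitochondrial and structural RNA genes (trimmed totals). The number called lower was 2 also without a filter, with a mean of at least 20 and with the replicate block. The partners and adaptors had 1 call under these same 4 settings (frs2b or flrt2). The intracellular factors had 0 calls with a mean of at least 20, with equal totals, with trimmed totals and with non-robust shrinkage. The heparan sulfate list had 1 call with equal totals and with non-robust shrinkage, the forebrain list 1 with equal upper quartiles and with non-robust shrinkage, and the tailbud list 1 with equal totals. spred2b had a log2 fold change of -0.012 with trimmed totals.

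With each library left out in turn, calls ranged from 0 to 1 for the ETS factors and the atypical phosphatases, 0 to 3 for the feedback inhibitors and the other MAPK phosphatases, 0 to 2 for the partners, 0 to 4 for the receptors and 1 to 2 for the ligands, and were 0 for the intracellular factors. They ranged from 0 to 7 in the Ras-MAPK, 0 to 6 in the heparan sulfate, 0 to 4 in the boundary, 1 to 4 in the hindbrain, 0 to 6 in the forebrain, 1 to 3 in the tailbud, 2 to 6 in the somite and 0 to 5 in the heart field list. Log2 fold changes ranged from -0.041 to 0.094 for spred2b, -0.10 to 0.41 for fgfr1b, -0.27 to 0.027 for fgfrl1b and -0.10 to 0.057 for fgfr1a. Across genes, same-numbered replicates did not deviate together (r = -0.0314, 2 pairs). The share of mitochondrial ribosomal RNA, given above, did go with the replicate number. It was higher in replicate 2 of both groups and close between same-numbered libraries. Whether the numbers pair the samples is therefore not known. With the replicate block 1132 genes were called higher and 1121 lower, against 1064 and 1037 without it. The low counts of many ligands leave wide intervals, such as those of fgf4 and fgf1b, and limit what the 2 libraries a group can show.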
